A study of Homo sapiens with 20 samples.

Results

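Skipped exons of 300 bases or more were examined in HepG2 cells, as a class of exon that is far longer than the usual internal exon. A skipped exon event is a cassette exon with its upstream and downstream neighbours, and it is measured by the sequencing reads that cross the junctions into and out of the exon (inclusion reads) or that join its neighbours directly (skipping reads). An event was taken when its exon had at least 300 bases and it had a mean of at least 10 inclusion plus skipping reads per library. By this rule 615 of 19792 events were taken in the siFUBP1 table, 1217 of 32990 in the U3 table and 220 of 7065 in the siFBL table. A further 152, 135 and 77 events of that length fell below the read limit. The events taken came to 564, 1060 and 215 different exons in 497, 927 and 204 genes. Over the 3 tables there were 1185 different exons, of 29248 exons of any length with enough reads. Of these long exons, 157 were present in all 3 tables, 340 in 2 and 688 in 1. One U3 event could not be fitted, which left 1216 there.

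HepG2 is a human liver cancer cell line, and every group was made from it. FUBP1, an RNA-binding protein that acts near 3′ splice sites, was depleted with an siRNA (siFUBP1) against a control siRNA (siCtrl2) for 48 h, with 3 libraries of polyadenylated RNA in each group. U3, a C/D box small nucleolar RNA, was depleted with an antisense oligonucleotide (U3 ASO) against an oligonucleotide to GFP (GFP ASO) for 72 h, also with 3 libraries in each group. FBL, the 2′-O-methyltransferase fibrillarin, was depleted with an siRNA (siFBL) against its control (siCtrl) for 48 h, and the 2 input libraries in each group of a FUBP1 immunoprecipitation served for splicing. No library was shared between the 3 comparisons.

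Exons are mostly recognised as units, with factors at the 3′ splice site before the exon and at the 5′ splice site behind it pairing across the exon. This pairing is thought to become harder as the distance grows, and long internal exons are therefore rare and often rely on enhancer sequences bound by SR proteins. Some long exons carry whole protein domains that are wanted in 1 tissue only, such as the giant exons of ankyrins in neurons, while others are poison exons, which bring a premature stop codon into the mRNA and expose it to nonsense-mediated decay (NMD). SR proteins and TRA2 proteins control their own levels through such poison exons.

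The splice sites of the long exons on which the results turn are shown here to let the letters around each exon be compared. Each 3′ splice site is given as 20 bases of intron in lower case and the first 3 bases of the exon in capitals, and each 5′ splice site as the last 3 bases of the exon in capitals and 6 bases of intron in lower case, 5′ to 3′ on the strand of the gene, from hg38.
SRSF3 poison exon, 3′ splice site: aaaaatgaaccccgttacagAGT
SRSF3 poison exon, 5′ splice site: CTAgtaagt
TNFRSF19 exon of 406 bases, 3′ splice site: tcttttgaacgtgtgtgcagAAA
TNFRSF19 exon of 406 bases, 5′ splice site: CAGgtaagg
TRA2A exon of 312 bases, 3′ splice site: aatgttctttttccattaagGTT
TRA2A exon of 312 bases, 5′ splice site: AATgtatgg
NASP exon of 1017 bases, 3′ splice site: catgttctttaaccatgtagAGG
NASP exon of 1017 bases, 5′ splice site: AAGgtaacc
CRAT exon of 379 bases, 3′ splice site: tgcaccaaccctaatttcagGAC
CRAT exon of 379 bases, 5′ splice site: CAGgcaagt
SON exon of 5916 bases, 3′ splice site: ttaatttctattacttttagACT
SON exon of 5916 bases, 5′ splice site: TGGgtgagt
NACA exon of 5589 bases, 3′ splice site: ctccttttgcctttctccagCTG
NACA exon of 5589 bases, 5′ splice site: AGGgtattt
Among the 20 intron bases shown, T made up 3 in SRSF3, 5 in CRAT, 8 in TNFRSF19 and NASP, 9 in NACA, 10 in TRA2A and 12 in SON. The 5′ splice site of CRAT begins with GC in place of GT. A score over the letters of each site, as the log2 ratio to equal use of the 4 bases from the letter frequencies of all exons measured here, was 1.03 at the 3′ splice site of SRSF3, against a median of 9.78 over all long exons.

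The libraries held junction reads in unequal numbers, with 910779 to 1142189 in the siFBL table, 2693397 to 4474350 in the siFUBP1 table and 11249641 to 13321799 in the U3 table. The targets were checked as far as skipped exon tables allow. FUBP1 junction reads lay between 45.2 and 56.1 per 1000000 junction reads in the siCtrl2 libraries and between 4.08 and 10.1 in the siFUBP1 libraries. In the U3 table they lay between 56.9 and 64.0 in GFP ASO and between 38.7 and 43.4 in U3 ASO, again with no overlap, and the part of this in the U3 results was not tested. FBL had no event in any table and U3 RNA is not measured by these libraries. Of the liver genes ALB, APOB, APOA1, FGB, SERPINA1, TF, TTR, AFP and FN1, 8 of 9 had events in every table, FGB being the gene without one. Several events can share an exon. In all, 127 long exons of the U3 table had more than 1 event, with other neighbours, and 125 overlapped another long exon with a different end. Such events share reads and are not independent of each other.

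Long exons differed from shorter ones in where they lie in their genes. Of 1184 long exons, 648 (54.7%) were internal coding exons, against 82.2% of 28062 shorter exons. A further 285 (24.1%) held the start codon, against 3.99%. Another 59 (4.98%, against 2.57%) were found in NMD transcripts and in no protein-coding transcript of GENCODE. The rest included 40 (3.38%) in 5′ UTRs, 28 (2.36%) in noncoding genes and 85 (7.18%) that matched no annotated exon exactly. Inside 95 long exons (8.02%, against 0.118%) the annotation removes an intron of at least 30 bases in another transcript. Of those 95, 58 (61.1%) were exons of the canonical transcript. Junction reads at the ends of an exon do not show whether an intron inside it was retained. The introns around long exons were longer than those around shorter ones, with medians of 3508 and 2868 bases before and behind the exon against 2302 and 2062. Median splice site scores were 9.78 against 9.22 at the 3′ splice site and 8.29 against 7.91 at the 5′ splice site. The share of T in the last 50 intron bases had medians of 40% and 38%. The 3′ splice site ended in AG at 100% of long exons and the 5′ splice site began with GT at 99.2%. These are descriptions over exons, with no test.

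In control cells most long exon events had an inclusion level of 0.9 or more. The inclusion level, the length-scaled share of inclusion among junction reads from 0 to 1, had a median over long exon events of 0.970 in siCtrl2, 0.981 in GFP ASO and 0.958 in siCtrl input, against 0.976, 0.989 and 0.947 for shorter exons. Levels of 0.98 or more were seen at 44.7%, 50.6% and 41.8% of long exon events, levels from 0.1 to 0.9 at 21.6%, 21.3% and 28.2%, and levels under 0.1 at 8.94%, 7.57% and 10%. The share of skipping reads among all junction reads, summed over events, was compared between long and shorter exons. It was 8.68% ± 0.236 and 6.63% ± 0.0302 in siCtrl2 (SD, n = 3), 8.51% ± 0.205 and 5.06% ± 0.0533 in GFP ASO (SD, n = 3) and 11.2% ± 0.492 and 7.14% ± 0.0647 in siCtrl input (SD, n = 2). These sums lean on single exons, which was looked at after the values had been seen. The NACA exon of 5589 bases gave 22.2% to 27.6% of all skipping reads at long exons in the siCtrl2 libraries, and without it the share was 6.60% ± 0.182 in siCtrl2 and 7.07% ± 0.198 in GFP ASO (SD, n = 3 each). In siCtrl input an exon of 348 bases of BSG, a cell surface glycoprotein, gave 27.8% and 32.4%, and without it the share was 8.09% ± 0.711 (SD, n = 2). Without these exons the share at long exons was the larger in 13 of 16 libraries, control and depletion together, and in siCtrl2 it lay at that of shorter exons. The libraries where it was not the larger were all in the siFUBP1 comparison. No exon was left out of the shorter set, so the 2 sides were treated unlike. Libraries of a comparison are scored on the same exons, and the count is a description only. In GFP ASO 9.21% of events of 300 to under 500 bases were included at under 0.1, against 5.35% of those of 500 to under 1000 bases and 6.49% of those of 1000 bases or more. Exons of 1000 bases or more had the lowest share at 0.98 or more of these length ranges in GFP ASO (43.7%), while in siCtrl input those of 300 to under 500 bases had the lowest (35.0%).

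**Figure D1:**
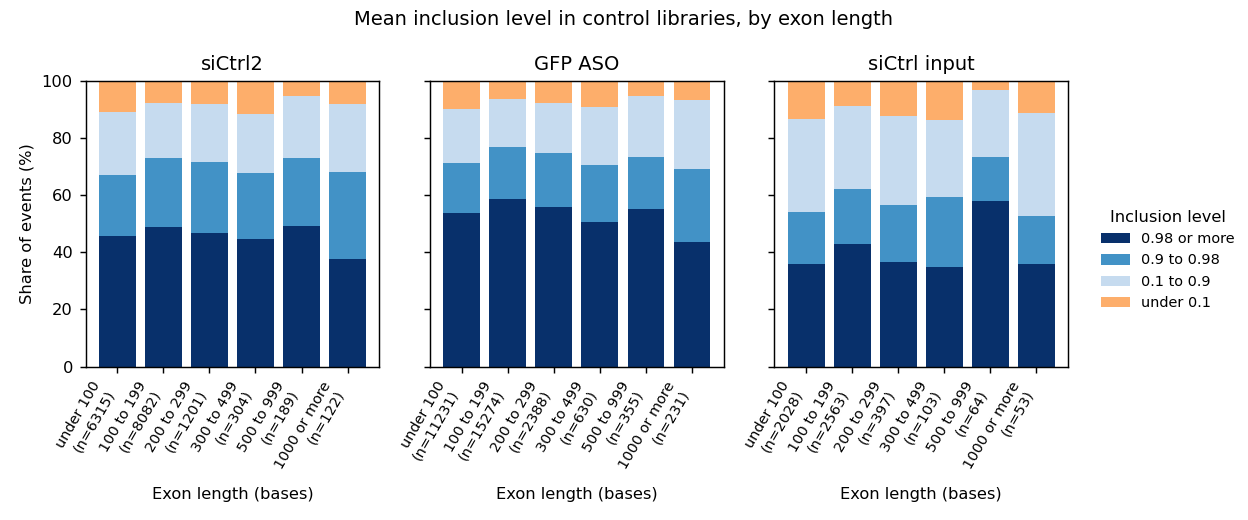
Share of events (%, y axis) in 4 ranges of mean inclusion level in the control libraries, by exon length in bases (x axis, with the number of events), for siCtrl2, GFP ASO and siCtrl input. In GFP ASO the range of 0.98 or more holds 50.5% of events of 300 to under 500 bases and 43.7% of those of 1000 bases or more.

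The canonical transcript and the letters at the splice site were compared between rarely and nearly always included exons, with no test. Of 95 long exons with a control level under 0.1, 16 (16.8%) belonged to the canonical transcript of GENCODE, against 544 of 633 (85.9%) at a level of 0.98 or more. At 93.7% of them the next intron began with GT, against 99.8%. Shorter exons showed the same contrast, with 11.7% against 95.4% in the canonical transcript and 95.7% against 99.0% with GT. Among long coding exons, lengths that are a multiple of 3 bases, which keep the reading frame when the exon is skipped, made up 62.0%, 59.7% and 65.1% at levels under 0.9 in siCtrl2, GFP ASO and siCtrl input, and 42.0%, 41.7% and 52.8% at 0.98 or more. Shorter coding exons had 59.2%, 57.7% and 63.8% against 44.1%, 39.2% and 48.2%.

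Many of the longest exons lay near full inclusion or near 0, though not all. SON, a nuclear speckle protein needed for splicing, has an exon of 5916 bases (chr21:33549476-33555391, exon 3 of 12), which was at 1, 1 and 0.995 in the siCtrl2 libraries and at 1 in the 3 siFUBP1 libraries, with 531.5 reads per library. RAI1, a transcriptional regulator, has one of 5581 bases that holds its start codon, at 1 in all siCtrl2 libraries. ALMS1, a centrosome protein, has one of 6108 bases, at 1, 0.907 and 1 in siCtrl2. At the other end stood NACA, whose exon of 5589 bases (chr12:56715871-56721459, exon 3 of 9) belongs to a long form known from muscle. No inclusion read was seen among its 6540 junction reads in siCtrl2, which allows a share of up to 0.0459%, a limit that covers counting error only because reads are not independent molecules. ANK2, an ankyrin whose giant exon is known from neurons, had that exon of 6255 bases at 0.118, 0 and 0 in GFP ASO. UNC13B, which primes synaptic vesicles, had its exon of 8247 bases at 0, 0.0303 and 0 in siCtrl2, and MPRIP, which ties myosin phosphatase to actin, had an exon of 3807 bases at 0.0152 and 0.0139 in siCtrl input. HIVEP1, a zinc finger transcription factor, had an exon of 5981 bases at 1 in all GFP ASO libraries. Between the extremes lay SAYSD1, whose exon of 4407 bases was at 0.404 ± 0.32 in siCtrl2 and 0.303 ± 0.112 in GFP ASO (SD, n = 3 each). PLEC, a cytoskeletal linker, had an exon of 3381 bases at 1 and 0.448 in siCtrl input. In the other control groups it was nearly always included, at 0.981 ± 0.0332 in siCtrl2 and 0.994 ± 0.00962 in GFP ASO (SD, n = 3 each). None of the 5 longest exons of any comparison was called after depletion. Their unadjusted p was between 0.0341 and 0.753, the lowest at ALMS1 under U3 ASO (0.833 ± 0.289 to 1 ± 0, SD, n = 3 each, adjusted p = 0.868). There 1 GFP ASO library stood at 0.5 and the groups overlapped.

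The comparison of siFUBP1 with siCtrl2 asked whether loss of FUBP1 changes how often long exons are included. No long exon event was called at an adjusted p under 0.1 by the quasi-binomial F test with limma's moderation, where 0.154% of all 16213 events tested were called. The test had an unadjusted p under 0.05 at 23 of 615 long exon events (3.74%), 15 lower and 8 higher, against 3.57% of all events, 2.26% lower and 1.3% higher. By limma on the log2 odds 4 long exon events were called without a variance trend (0.0493% of all events) and 6 with one (0.715%). Inclusion was lower at 325 events and higher at 290, with a median change of -0.00336, against -0.00139 over all events. The median was 0 without any 1 of the 3 siFUBP1 libraries. The mean level over 599 long exon events with reads in every library was 0.825, 0.823 and 0.833 in siCtrl2 and 0.814, 0.812 and 0.813 in siFUBP1. The groups did not overlap, and the difference was -0.0143. Without the overlapping RWDD3 events described next, left out after the values had been seen, it was -0.00828. Over shorter exons the difference was -0.00498, also with no overlap of the groups. An exact permutation test of 3 against 3 libraries cannot go below p = 0.1. The share of skipping reads at long exons was 8.68% ± 0.236 and 8.73% ± 0.391 (SD, n = 3 each), and there the groups overlapped.

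RWDD3, which promotes SUMO conjugation, was the long exon with the smallest p. Its exon of 488 bases (chr1:95244211-95244698, exon 2 of 4, coding) had levels of 1, 0.941 and 1 in siCtrl2, from 10, 33 and 7 reads, and of 0 in each siFUBP1 library, from 5, 10 and 11 reads. The groups did not overlap, and the change was -0.980 (unadjusted p = 0.00019, adjusted p = 0.104). The 26 reads without inclusion in siFUBP1 allow a share of up to 11.5% of reads. Versions of the exon with other 5′ splice sites, of 441 and 505 bases, had the same levels from overlapping reads and are no further evidence. A further event of the 505 base version was at 1 in each siCtrl2 library and at 0.92, 0 and 0 in siFUBP1 (adjusted p = 0.836). There siFUBP1 library 1 had 23 inclusion reads and 1 skipping read. The level of 0 in each siFUBP1 library thus holds for particular 5′ splice sites and neighbours. The event of 488 bases had few reads, fell under the read limit without siCtrl2 library 2, and had an adjusted p between 0.234 and 0.888 without any other library, but 0.0138 and 0.000411 by limma without and with the trend. In the U3 table the same exon, with 34.7 reads per library, was at 0.575 ± 0.411 in GFP ASO and 0.574 ± 0.379 with U3 ASO (SD, n = 3 each), so its level varied widely among control libraries.

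CRAT, the carnitine acetyltransferase of mitochondria and peroxisomes, stood the opposite way, higher in siFUBP1. Its exon of 379 bases (chr9:129108899-129109277), found in NMD transcripts with a stop codon at base 94 and shown above with its GC splice site, was not read in any siCtrl2 library (0 of 103 reads, which allows a share of up to 2.91%). It stood at 0.256, 0.63 and 0.346 in siFUBP1. The change was 0.411 (unadjusted p = 0.000206, adjusted p = 0.104). It passed the threshold when events needed 20 reads (adjusted p = 0.0904) and by limma without (0.0701) and with the trend (0.000411). It missed it with the prior from all events (0.103) and when any 1 library was left out (0.200 to 0.801). The same exon was at 0.231 ± 0.0944 with GFP ASO and 0.156 ± 0.026 with U3 ASO (n = 3 each, SD), so other control libraries of HepG2 cells did hold reads of it.

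The other long exons picked out by the smallest p with groups that do not overlap all had an adjusted p of 0.836, so their values are given as a description. By limma ECT2 had an adjusted p of 0.0786 with the trend and 0.265 without it, and the others passed by neither. The 5′ UTR exon of ECT2, a gene needed for cell division, was at 0.429, 0.12 and 0.8 in siCtrl2 and at 0.0141, 0 and 0 in siFUBP1. RO60, the Ro autoantigen that binds Y RNAs, had its exon of 601 bases with the start codon at 1 in each siCtrl2 library and at 0.93, 0.531 and 0.843 in siFUBP1. Another event of the same exon was at 0.926 ± 0.0646 and 0.902 ± 0.105 (SD, n = 3 each). NCK2, an SH2 and SH3 domain adaptor, had its exon of 722 bases at 1, 1 and 0.95 in siCtrl2 and at 0.727, 0.44 and 0.714 in siFUBP1. In these genes the exon carries the start codon, the coding region or the leader of the mRNA. With GFP ASO the exons of ECT2, RO60 and NCK2 were at 0.117 ± 0.103, 0.698 ± 0.0792 and 0.754 ± 0.0873 (SD, n = 3 each). With siCtrl input, RO60 was at 1 ± 0 and NCK2 at 0.636 ± 0.279 (SD, n = 2 each). Control levels of these exons thus differed between experiments. UBE2V1, a partner of ubiquitin-conjugating enzymes, had an exon of 338 bases at 0.944 ± 0.0432 in siCtrl2 and at 0.726 ± 0.049 in siFUBP1 (SD, n = 3 each). KDM4C, a histone demethylase, had an NMD exon of 924 bases at 0.333 ± 0.285 in siCtrl2 and at 0.0175 ± 0.0304 in siFUBP1 (SD, n = 3 each). ASPSCR1, which tethers glucose transporter vesicles, had its exon of 427 bases at 0.869, 0.754 and 0.867 in siCtrl2 and at 0.877, 0.936 and 0.982 in siFUBP1, and was the only coding exon of these that stood higher. Over all long exon events 29 of 615 (4.72%) had groups that do not overlap, 18 lower and 11 higher, against 5.05% of all events, 3.1% lower and 1.96% higher.

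Long exons between long introns were looked at apart, a split chosen after the values had been seen. Of 308 long exon events whose 2 introns together reached the median of 8984 bases, 13 were lower and 3 higher in siFUBP1 at an unadjusted p under 0.05, while of 307 with shorter introns 2 were lower and 5 higher. The 13 include the overlapping RWDD3 events of 488, 441 and 505 bases, which share reads and are not independent. Over all events tested the same cut gave 172 lower and 63 higher of 6058, and 195 lower and 148 higher of 10155. The tilt to lower inclusion at long introns was thus seen over all exons as well, and the difference between the splits was not tested.

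**Figure D2:**
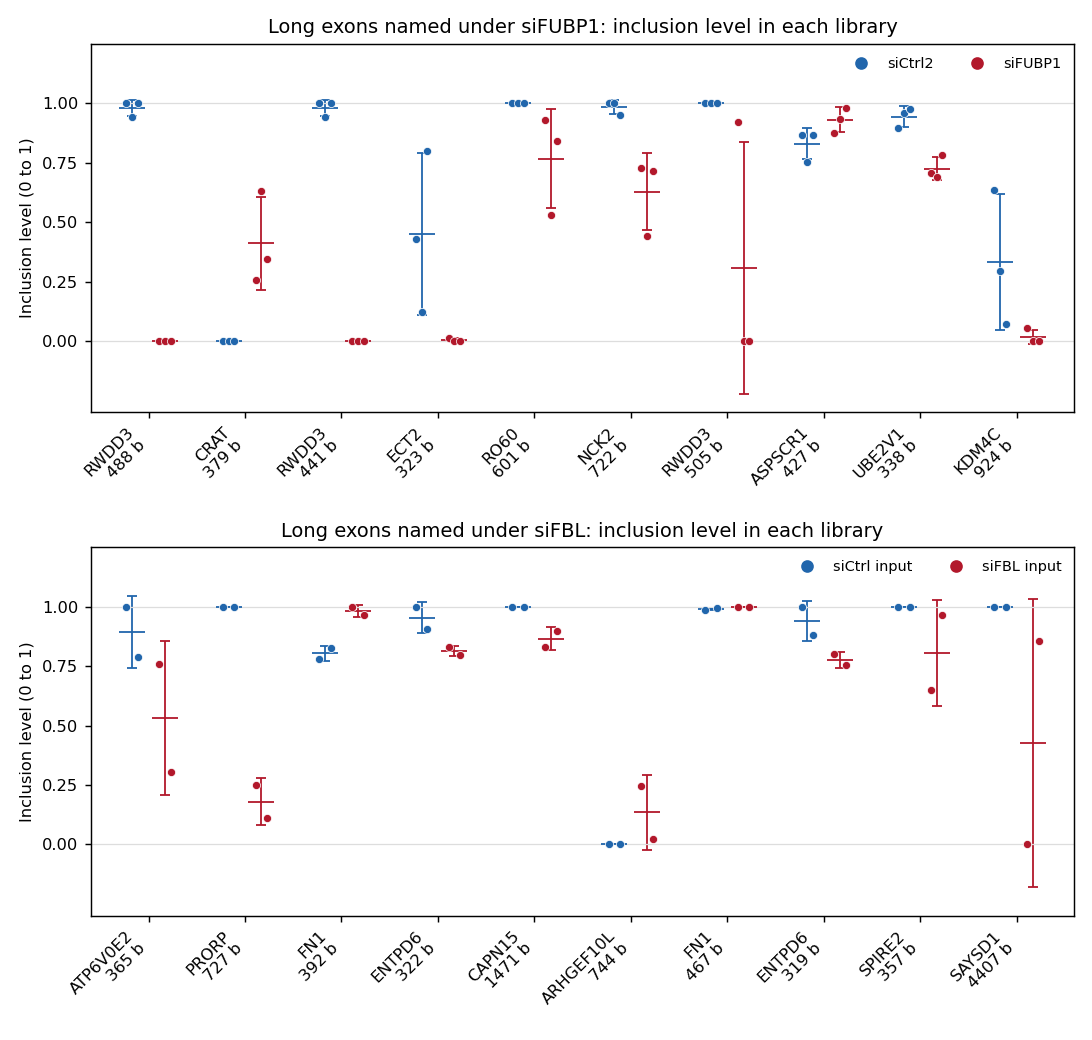
Inclusion level (0 to 1, y axis) in each library for the long exons named under siFUBP1 (top, 3 libraries a group) and siFBL (bottom, 2 libraries a group), with gene and exon length in bases on the x axis; bars show the mean and SD. RWDD3 stands at 0.941 to 1 in siCtrl2 and at 0 in siFUBP1, and CRAT at 0 in siCtrl2 and at 0.256 to 0.63 in siFUBP1.

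The comparison of U3 ASO with GFP ASO asked the same after loss of a C/D box small nucleolar RNA. Long exons of SRSF3 and TNFRSF19 were called, both with higher inclusion, which is 2 of 1216 events tested, where 0.186% of all 30109 events were called. An unadjusted p under 0.05 was found at 32 long exon events (2.63%), 14 lower and 18 higher, against 3.25% of all events, 1.53% lower and 1.72% higher. Groups that do not overlap were found at 57 (4.69%), 34 lower and 23 higher, against 6.03% of all events, 3.72% lower and 2.31% higher. By limma on the log2 odds 0 long exon events were called without the variance trend (0% of all events) and 14 with it (1.08% of all events). Inclusion was lower at 681 events and higher at 534, with a median change of -0.00281 against -0.00355 over all events. The median was 0 without any 1 of the 3 U3 ASO libraries. The mean level over 1188 long exon events was 0.840 ± 0.000898 with GFP ASO and 0.840 ± 0.0065 with U3 ASO (n = 3 each, SD). Shorter exons went from 0.849 ± 0.000646 to 0.846 ± 0.000726, and their share of skipping reads from 5.06% ± 0.0533 to 5.67% ± 0.0521, while that of long exons was 8.51% ± 0.205 and 8.52% ± 0.165.

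SRSF3, the smallest of the SR proteins, carries the poison exon that gave the clearest result of the long exons. The exon of 456 bases (chr6:36599821-36600276) is found in NMD transcripts, with a stop codon at base 32, and its 3′ splice site, shown above, has few T. It was at 0.0194, 0.0572 and 0.0476 in GFP ASO and at 0.188, 0.184 and 0.193 in U3 ASO, from 1323.7 reads per library. All U3 ASO libraries stood above the highest GFP ASO library, and the U3 ASO libraries differed little from each other. The change was 0.147 (adjusted p = 4.33e-21), and the adjusted p was at most 3.68e-14 when 1 library was left out. These p-values rest on a dispersion shared by events of like information, not on the spread of this exon between libraries. By limma the adjusted p was 0.0492 with the variance trend and 0.672 without it. In the other tables the exon was at 0.0238 ± 0.00224 with siCtrl2 and 0.044 ± 0.00461 with siFUBP1 (n = 3 each, SD, adjusted p = 0.836), again with no overlap, and at 0.0231 ± 0.0239 with siCtrl input and 0.0288 ± 0.0408 with siFBL input (n = 2 each, SD, adjusted p = 0.906).

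TNFRSF19, a receptor of the tumour necrosis factor family, was called at a coding exon of 406 bases (chr13:23668692-23669097, exon 9 of 10). Its levels were 0.858, 0.656 and 0.621 in GFP ASO and 0.939, 0.969 and 0.963 in U3 ASO, from 265.3 reads per library, and the groups did not overlap. The change was 0.245 (adjusted p = 0.0255). The call was lost without GFP ASO library 2 (adjusted p = 0.238), without GFP ASO library 3 (0.448) and without U3 ASO library 1 (0.104), library 2 (0.336) or library 3 (0.402), and it was lost by limma without the trend (0.587). In the other tables the exon was at 0.90 ± 0.0964 in siCtrl2 and 0.688 ± 0.239 in siFUBP1, and at 0.814 ± 0.0775 in siCtrl input and 0.971 ± 0.0416 in siFBL input, neither called.

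Other long exons under U3 ASO are described as the next by p, none of them called. The exon of TRA2A, a splicing activator of the SR-like class, of 312 bases (chr7:23522121-23522432) was at 0.259, 0.261 and 0.155 in GFP ASO and at 0.56, 0.322 and 0.456 in U3 ASO (adjusted p = 0.292). In siFUBP1 it was at 0.486 ± 0.374 against 0.284 ± 0.0307 in siCtrl2 (SD, n = 3 each, adjusted p = 0.836), with overlap. Versions with the same 3′ splice site and other 5′ splice sites were also measured. One of 726 bases, with 500.5 reads per library, was at 0.975 ± 0.0321 in GFP ASO and 1 ± 0 in U3 ASO. Another of 301 bases, annotated in a 5′ UTR, was at 0.237 ± 0.0815 and 0.415 ± 0.109 (SD, n = 3 each, adjusted p = 0.868 for both). The levels of the 312 base exon thus hold for its own 5′ splice site. TIMM8B, a chaperone of mitochondrial import, had an NMD exon of 333 bases at 0.0898, 0.109 and 0.0831 in GFP ASO and at 0.138, 0.178 and 0.184 in U3 ASO (adjusted p = 0.267). DYNLRB1, a dynein light chain, had an NMD exon of 383 bases at 0.0052 ± 0.000996 with GFP ASO and 0.0174 ± 0.00316 with U3 ASO (n = 3 each, SD, adjusted p = 0.868). Other control groups reached these levels for both exons. TIMM8B was at 0.0543 ± 0.0548 in siCtrl2 (SD, n = 3) and 0.167 ± 0.159 in siCtrl input (SD, n = 2), against a mean of 0.167 in U3 ASO. DYNLRB1 was at 0.0332 ± 0.029 in siCtrl2 (SD, n = 3) and 0.00698 ± 0.00987 in siCtrl input (SD, n = 2). Of the 6 named exons that stood higher in U3 ASO, SRSF3, TIMM8B and DYNLRB1 are annotated in NMD transcripts, TRA2A in other noncoding transcripts of its gene, and TNFRSF19 and FAT1 as coding. Of 55 long exon events in NMD transcripts tested in this table, 29 were higher and 26 lower, and their median change was 0.00322. An unadjusted p under 0.05 was found at 3 of them (5.45%), all higher and 1 of them SRSF3, against 3.25% of all events, 1.72% higher.

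Coding exons stood on both sides. NASP, a histone chaperone whose exon of 1017 bases (chr1:45607321-45608337, exon 6 of 15) sets apart its long form, was at 0.511, 0.453 and 0.42 in GFP ASO and at 0.326, 0.393 and 0.334 in U3 ASO, from 1002.5 reads per library (adjusted p = 0.434). PHF14, a PHD finger protein, had its exon of 788 bases at 1 in each GFP ASO library and at 0.904, 0.947 and 0.91 in U3 ASO (adjusted p = 0.474). The 0 skipping reads of 1372 in GFP ASO allow a share of up to 0.219%. MATR3, an RNA-binding protein of the nuclear matrix, had its exon of 1089 bases with the start codon at 1, 1 and 0.968 in GFP ASO and at 0.918, 0.9 and 0.91 in U3 ASO. Further events of this exon were at 1 ± 0 and 0.97 ± 0.036 in GFP ASO and at 0.998 ± 0.0027 and 0.958 ± 0.0379 in U3 ASO (SD, n = 3 each). SP3, a transcription factor, had its exon of 1360 bases at 1 in each GFP ASO library and at 0.939, 0.955 and 0.965 in U3 ASO. FAT1, a giant cadherin, had its exon of 4068 bases at 0.87, 0.94 and 0.982 in GFP ASO and at 0.988, 0.99 and 1 in U3 ASO. The last 3 had an adjusted p of 0.868. Skipping reads thus appeared at PHF14 and SP3 only in U3 ASO libraries of this table. By limma with the trend PHF14 (adjusted p = 0.0032), MATR3 (0.00417) and SP3 (0.0414) were called. Control libraries of the other tables also held skipping reads of PHF14. Its level was 0.974 ± 0.0453 in siCtrl2 and 0.8 ± 0.283 in siCtrl input (SD). MATR3 was at 0.911 ± 0.0636 in siCtrl2 (SD), near its mean of 0.909 in U3 ASO. In siCtrl input MATR3 was higher, at 0.986 ± 0.0199 (SD). In siFUBP1 SP3 was at 0.868 ± 0.133 against 1 ± 0 in siCtrl2 at 1 event and at 1 ± 0 against 0.982 ± 0.0309 at another, and FAT1 at 0.999 ± 0.00169 against 0.975 ± 0.00959 (SD, n = 3 each, adjusted p = 0.836 for each).

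**Figure D3:**
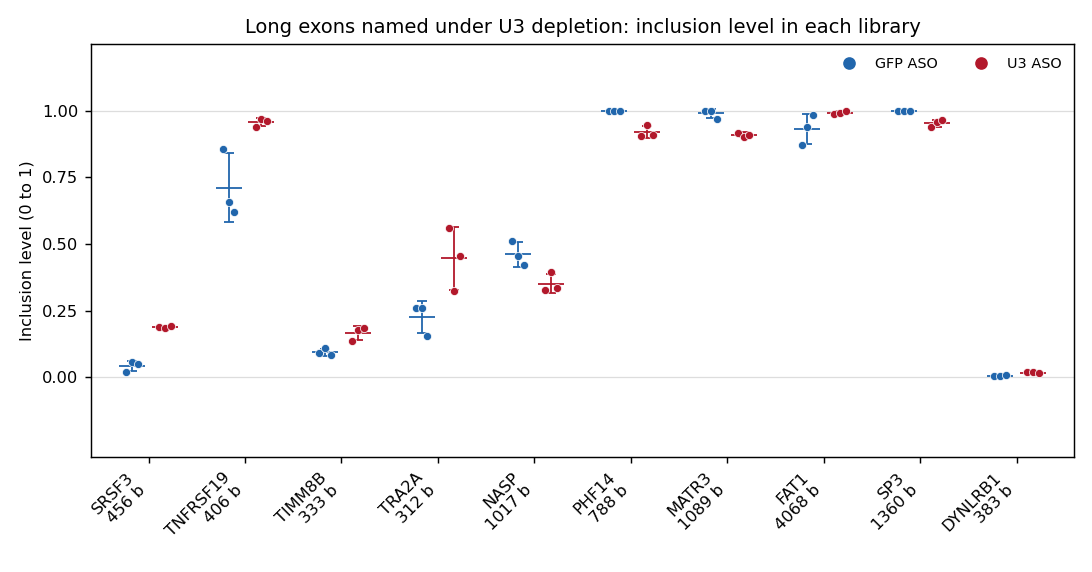
Inclusion level (0 to 1, y axis) in each GFP ASO and U3 ASO library for the 10 long exons named under U3 depletion, with gene and exon length in bases on the x axis; bars show the mean and SD over 3 libraries. The 3 U3 ASO points of SRSF3 lie between 0.184 and 0.193, above the GFP ASO points at 0.0194 to 0.0572.

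In the siFBL input libraries no long exon event was called of 220 tested, and 0% of all 5208 events tested were called. The test had an unadjusted p under 0.05 at 4 long exon events, 3 lower and 1 higher (1.82%, against 1.46% of all events, 0.902% lower and 0.557% higher), and limma called 0 with the trend (0.0576% of all events) and 0 without it (0%). With 2 libraries a group, groups that do not overlap were found at 32 long exon events (14.5%), 18 lower and 14 higher, against 13.8% of all events, 7.64% lower and 6.2% higher. Inclusion was lower at 129 and higher at 89, with a median change of -0.0209 against -0.00337 over all events. The median was -0.00779 without siCtrl input library 2 and 0 without either siFBL input library. The mean level over 213 long exon events was 0.784 and 0.799 in siCtrl input and 0.778 and 0.745 in siFBL input. These groups did not overlap, and the difference was -0.0304, against -0.0075 for shorter exons. The share of skipping reads at long exons was 11.2% ± 0.492 and 11.3% ± 0.863 (SD, n = 2 each).

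Named exons of this comparison had an adjusted p of 0.897 throughout. ATP6V0E2, a subunit of the proton pump of acid organelles, had an exon of 365 bases at 1 and 0.788 in siCtrl input and at 0.76 and 0.304 in siFBL input. PRORP, the nuclease of mitochondrial RNase P, had its exon of 727 bases with the start codon at 1 and 1 and at 0.25 and 0.111, from 15.2 reads per library. In the deeper U3 table the PRORP exon was at 0.678 ± 0.119 with GFP ASO and 0.481 ± 0.0725 with U3 ASO (n = 3 each, SD, adjusted p = 0.868). CAPN15, a calpain, had an exon of 1471 bases with the start codon at 1 and 1 in siCtrl input and at 0.831 and 0.899 in siFBL input. Another event of the same exon stood higher, at 0.942 ± 0.0821 with siCtrl input and 1 ± 0 with siFBL input (n = 2 each, SD). ENTPD6, a nucleotidase, had its exon of 322 bases at 1 and 0.908 and at 0.83 and 0.799, and SPIRE2, an actin nucleator, one of 357 bases at 1 and 1 and at 0.648 and 0.965. Fibronectin (FN1) had an exon of 467 bases at 0.988 and 0.995 in siCtrl input and at 1 and 0.998 in siFBL input, from 3662.5 reads per library, and a shorter version of it of 392 bases at 0.781 and 0.827 and at 1 and 0.964. ARHGEF10L, at an exon of 744 bases, was at 0 and 0 in siCtrl input and at 0.246 and 0.0244 in siFBL input. SAYSD1, with an exon of 4407 bases, had 11.2 reads per library and stood at 1 and 1 and at 0 and 0.857.

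**Figure D4:**
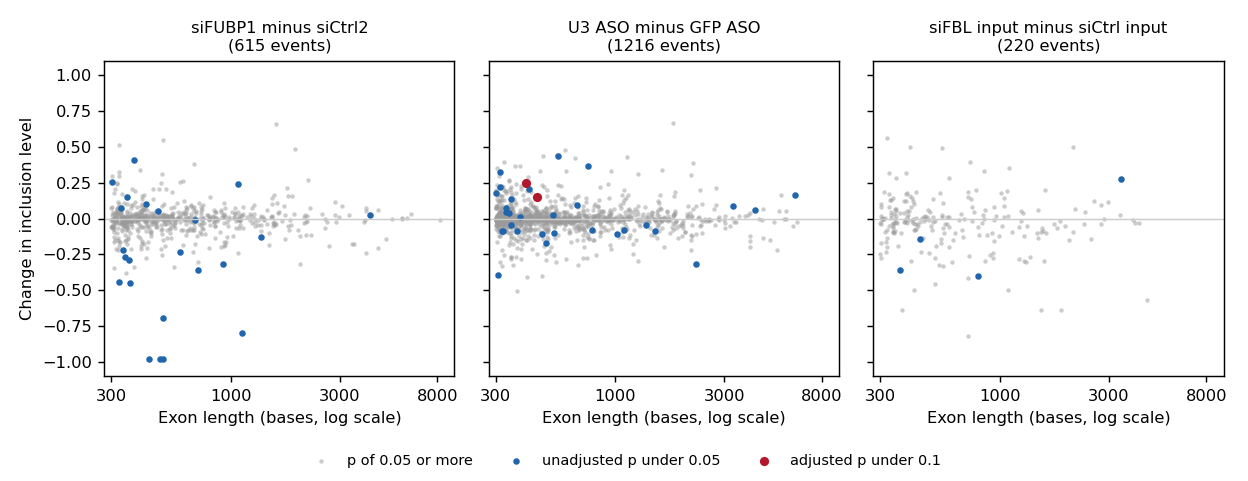
Change in inclusion level (depletion minus control, y axis) against exon length (bases, log scale, x axis) for each long exon event of the 3 comparisons, with events at an unadjusted p under 0.05 in blue and at an adjusted p under 0.1 in red. The red points are SRSF3 (0.147) and TNFRSF19 (0.245) under U3 ASO, and most other points lie near 0 at every length.

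Genes were also grouped by lists of function and, for zinc finger genes and for long noncoding and snoRNA host genes, by how their symbol starts. Splicing regulators had 11, 13 and 5 long exon events in the siFUBP1, U3 and siFBL tables. SRSF3 was the called one, under U3 ASO. There 3 of 13 had an unadjusted p under 0.05, all higher, at SRSF3 and at overlapping exons of TRA2A that share reads, against 3.25% of all events. In all, 7 were lower (53.8%, against 59.2% of all events) and 6 higher, and the median change was -0.000682, against -0.00355 over all events. The other members with most reads were nearly always included: NONO, a paraspeckle protein, had its exon of 302 bases at 1 ± 0 in GFP ASO and 0.999 ± 0.00118 in U3 ASO, and HNRNPA3 an NMD exon of 2569 bases at 0.959 ± 0.0166 and 0.942 ± 0.0242 (SD, n = 3 each). In siFUBP1 that HNRNPA3 exon was at 0.891 ± 0.0543 against 0.959 ± 0.0151 in siCtrl2 (SD, n = 3 each, adjusted p = 0.836).

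Chromatin regulators, many of them very large proteins, had 18, 30 and 8 long exon events, none called, with 9, 19 and 5 lower and 9, 11 and 3 higher. The shares lower were 50%, 63.3% and 62.5%, against 51.9%, 59.2% and 52.1% of all events. BAZ1B, a bromodomain protein, had an exon of 1702 bases at 0.992 ± 0.0132 in GFP ASO and 0.973 ± 0.0224 in U3 ASO, and CREBBP, a histone acetyltransferase, one of 417 bases at 0.962 ± 0.0658 and 0.972 ± 0.00718 (SD, n = 3 each). Genes of mitosis and the centrosome had 9, 14 and 4 events, none called. In siFUBP1, 7 of the 9 were lower, 1 of them (ECT2) at an unadjusted p under 0.05, and the median change was -0.113 against -0.00139 over all events. In U3 ASO 10 of 14 (71.4%) were lower, against 59.2% of all events, with a median change of -0.0235 against -0.00355. In siFBL input 1 of 4 was lower and 3 higher, with a median change of 0.0191 against -0.00337 over all events. MKI67, the Ki-67 antigen, whose exon of 1080 bases is absent from its short form, was at 0.382 ± 0.272 in siCtrl2 and 0.141 ± 0.0321 in siFUBP1, and KIF23, a kinesin of cytokinesis, had its exon of 312 bases at 0.211 ± 0.0613 and 0.0617 ± 0.0834 (SD, n = 3 each, adjusted p = 0.836 for both), with 35 and 29.2 reads per library. In U3 ASO KIF23 was at 0.262 ± 0.0516 against 0.178 ± 0.0869 (SD, n = 3 each).

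The remaining lists gave no call. Genes of the cytoskeleton and adhesion had 10, 13 and 8 events, with median changes of 0.00881, -0.00131 and -0.000488, against -0.00139, -0.00355 and -0.00337 over all events. Zinc finger genes, whose coding region often sits in long exons, had 22, 61 and 11 events, with 8, 36 and 7 lower and 14, 25 and 3 higher. That is 36.4%, 59.0% and 63.6% lower, against 51.9%, 59.2% and 52.1% of all events. ZNF638, an RNA-binding zinc finger protein, had its exon of 1225 bases at 1 ± 0 with GFP ASO and 0.992 ± 0.00877 with U3 ASO (n = 3 each, SD). DNA repair genes had 12 events in the U3 table, 8 lower (66.7%, against 59.2% of all events) and 4 higher. Their median change was -0.0111, against -0.00355 over all events. Long noncoding and snoRNA host genes had 7, 11 and 2 events. SNHG14, which hosts snoRNAs, had an exon of 358 bases at 0.954 ± 0.0344 with GFP ASO and 1 ± 0 with U3 ASO (n = 3 each, SD, adjusted p = 0.868).

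The 157 long exons tested in all 3 tables allowed control cells to be compared across experiments. In 63 of them the level was 0.9 or more in all 3 control groups and in 17 it was under 0.1. In 90 the 3 control levels lay within 0.1 of each other, with a median range of 0.0766. After depletion 27 were lower in all 3 comparisons and 21 were higher in all 3. Over all events, 51.9%, 59.2% and 52.1% were lower under siFUBP1, U3 ASO and siFBL. The share lower in all 3 was not computed for shorter exons, and whether directions go together was not tested. Among those of middle level with the most reads, NASP was at 0.298 ± 0.0479 in siCtrl2, 0.461 ± 0.0463 in GFP ASO and 0.244 ± 0.127 in siCtrl input. On average skipping was thus the larger share in every control group, though GFP ASO library 1 stood at 0.511. NDUFV3, a subunit of respiratory complex I with a long and a short form, had its exon of 1095 bases at 0.254 in siCtrl2, 0.416 in GFP ASO and 0.239 in siCtrl input. ANKRD17, an ankyrin repeat protein, had its exon of 753 bases at 0.514, 0.756 and 0.870 in the same groups. WAC, an adaptor of histone ubiquitination, was at 0.851, 0.736 and 0.890, and LRIF1, a protein of heterochromatin, was at 0.304, 0.363 and 0.214 at its exon of 1528 bases. In none of these 5 was the change under any depletion called. The control groups differ in reagent and in library type as well as in depth, and these cannot be told apart.

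**Figure D5:**
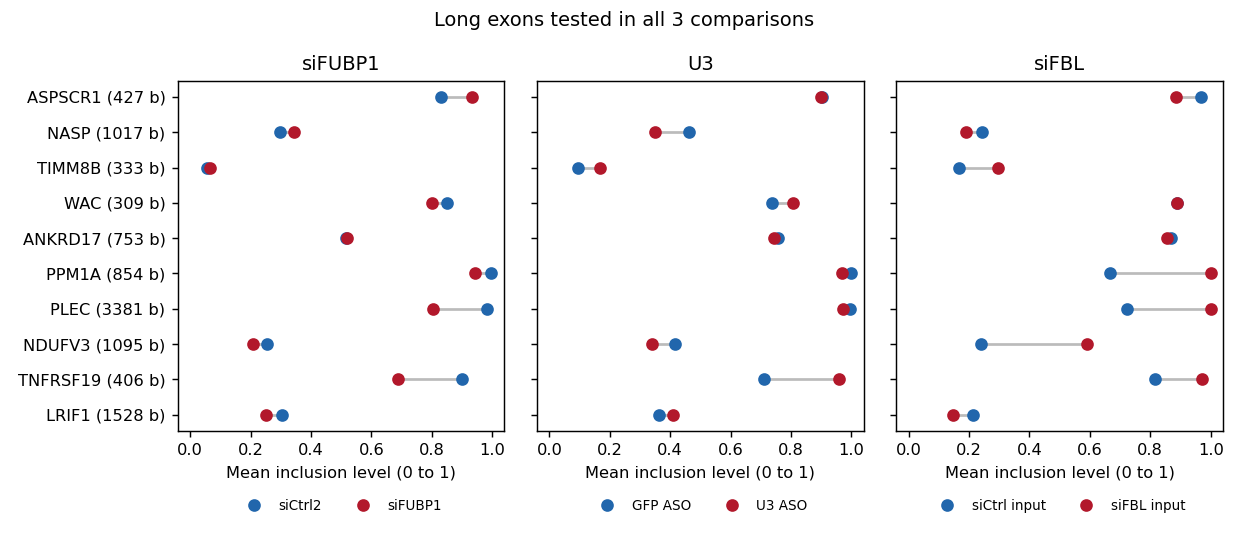
Mean inclusion level (0 to 1, x axis) in control (blue) and depletion (red) libraries for the 10 long exons of middle level with the most reads among those tested in all 3 comparisons. NASP lies at 0.244 to 0.461 in the control groups, and TNFRSF19 at 0.712 in GFP ASO and 0.957 in U3 ASO.

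At the length limit, the exons of 300 bases with the most reads were in NID1 (0.999 to 1 from GFP ASO to U3 ASO), R3HDM1 (1 to 0.996), ELF1 (1 to 0.993), USP19 (1 to 0.949) and TMEM201 (1 to 0.929). Just outside, 1 or 2 bases shorter, stood HINFP (1 to 0.941), PIBF1 (1 to 0.955), BABAM1 (0.958 to 1) and HCFC1R1 (0.924 to 0.920).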

How the data were processed

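RNA-seq and RIP input reads had been trimmed with Cutadapt, aligned to hg38 with HISAT2 and counted at splice junctions with rMATS by the authors (versions and annotation are not given in the sources used here). The deposited tables list, for each event, whole inclusion and skipping junction read counts per library and the effective lengths of both forms (298 and 149 for long exons). The authors' p-values, FDR and inclusion level differences, and 6 columns of inclusion levels per library, were not used, nor were the RIP libraries and their table.

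Inclusion levels were computed as length-scaled shares, and a change is depletion minus control. All events with a mean of at least 10 reads were tested by a quasi-binomial F test of group, with the dispersion moderated by limma 3.58.1 (squeezeVar, R 4.3.3; prior from events with information of at least 5, the reads per library times inclusion and skipping share). In each table the prior got full weight. Each event thus took the dispersion of events of like information, and its own spread between libraries did not enter. P-values were adjusted over all events of a table (Benjamini-Hochberg, called under 0.1). The test was run on simulated data first, with a constant dispersion. That dispersion was below the median prior in the siFUBP1, U3 and siFBL data (6.62, 7.95 and 11.4). The simulation thus does not show how the test behaves here. Alternatives were limma on log2 odds (0.5 added) with and without a variance trend, another prior, read minimum or length, and each library left out. Libraries are named by position in the lists, and replicates are biological by the study's methods. Exons were matched to GENCODE 44 on hg38.

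Named exons were, per comparison and with the event of most reads for each exon, the called events, then those with the smallest p and groups that do not overlap up to 10, the 5 longest, 10 exons shared by all 3 tables at middle level with most reads, list members with most reads, and exons next to the length limit, of which 1 is not reported here. Members and lists were chosen with earlier results of these data known.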

Additional observations from a re-analysis of the deposited data

How the results depend on the processing

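Under siFUBP1 the count of called long exon events was 0, and it was 1 with at least 20 reads, 1 with the prior from all events, 4 by limma without and 6 with the variance trend, and 0 without any 1 library. The median change of -0.00336 became -0.00163 with at least 20 reads, -0.00216 with no read minimum and with 1 event per exon, -0.00218 without length scaling and -0.00242 at 500 bases or more, and lay between -0.00392 and 0 when 1 library was left out. Under U3 ASO the count of 2 became 0 by limma without and 14 with the trend, and was 1 to 2 when 1 library was left out. The median change of -0.00281 was -0.00500 at 500 bases or more and lay between -0.0038 and 0 when 1 library was left out. Under siFBL the count stayed at 0 in each alternative, and the median change of -0.0209 lay between -0.0243 and 0 when 1 library was left out. The causes were not tested. For single named exons, 253 recomputed values stayed on the same side of the threshold, 12 passed it where the reported value did not and 7 no longer passed it, and none changed direction. Leaving out the long exon with most skipping reads of each table, or RWDD3, was chosen after seeing the data. No paired analysis was possible because the positions in the lists of reads carry no replicate number. Depth limits the siFBL table most, and 0 called there with 2 libraries a group does not show that long exons were unaffected.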

Other observations

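The long exon events with an unadjusted p under 0.05 held some that the rule for named exons did not take, because their groups overlap, and these were chosen after their values were seen. GPC3, the cell surface proteoglycan glypican-3 that liver cancer cells make in large amounts, had a coding exon of 695 bases with 3453 reads per library, at 1 ± 0 with siCtrl2 and 0.992 ± 0.0146 with siFUBP1 (n = 3 each, SD, unadjusted p = 0.000871), while 2 further events of this exon with 1042 and 4469 reads were at 0.999 in siCtrl2 and 1 in siFUBP1. GORAB, a Golgi protein, had overlapping exons of 362 and 358 bases at 1 in siCtrl2 and at 0.552 and 0.711 in siFUBP1. P4HA2, a collagen prolyl hydroxylase, had a 5′ UTR exon of 562 bases at 0.0827 in GFP ASO and 0.519 in U3 ASO, from 28.8 reads per library. None of these passed the adjusted threshold.

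Long exons with an annotated intron inside them numbered 53, 89 and 16 events in the siFUBP1, U3 and siFBL tables, with 0 called, and with median changes of -0.00641, -0.00381 and -0.0746 against -0.00304, -0.00278 and -0.0193 for long exons without one. Long exons that hold the start codon had lower inclusion at 98 and higher at 78 events after siFUBP1 (55.7% lower), at 160 and 137 after U3 ASO (53.7%) and at 36 and 14 after siFBL (70.6%), while over all events 51.9%, 59.2% and 52.1% were lower. Their median changes were -0.00453, -0.00201 and -0.0544. After siFBL 1 of 51 such events (1.96%) had an unadjusted p under 0.05, against 1.46% of all events, and the difference from other long exons was not tested.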
